A study of Mus musculus with 6 samples.

Results

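In livers of mice that lack Trim24, 9 genes had more reads on average than in wild type livers, where most of them were at or near 0. In 1 of them, Moxd1, the genotypes overlapped, and another, Rpp40, was low and not absent in wild type. The 9 genes were Mep1a, Tmigd1, Gabra3, Gria3, Adrb3, Vwc2l, Moxd1, Slc13a5 and Rpp40, 9 of the 23284 genes in the count tables. They were picked by their symbols because their read counts differed in this way between the genotypes, so their levels in the genotypes are given below as a description and were not tested. RNA was sequenced from livers of Trim24 -/- mice (KO1, KO2 and KO3) and of wild type mice (WT1, WT2 and WT3), numbered as in the labels. All 6 libraries were of total liver RNA from 8-week-old animals of the C57BL6/J strain. The labels give neither the kind of knockout allele, nor the sex, nor whether each library came from a separate mouse, so any p-value here measures the spread between libraries, which may be technical.

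Trim24 encodes a nuclear cofactor of the TIF1 family, which binds modified histone tails and nuclear receptors, among them the retinoic acid receptor, and can repress transcription. In adult tissues many genes are used by few cell types and are held silent elsewhere, and most of the 9 genes are known from such other tissues. Mep1a and Tmigd1 are genes of kidney and intestinal epithelium, Gabra3, Gria3 and Vwc2l of nervous tissue, and Adrb3 of fat. Rpp40 is no gene of another tissue, since RNase P is used by every cell, and Slc13a5 is a citrate transporter gene known from liver, testis and brain.

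Reads counted in genes came to 1607276 to 2872421 per knockout library and 1495583 to 1732309 per wild type library, which was 4.22% to 6.69% of the counted reads. One read was worth 0.348 to 0.619 CPM in the knockout libraries and 0.594 to 0.699 CPM in the wild type libraries, where CPM are counts per 1000000 reads in the genes tested, scaled by the TMM factor of each library. A count of 0 in a wild type library was set against a limit of 3 reads, or 1.78 to 2.096 CPM, and its exact two-sided 95% interval reached 2.19 to 2.58 CPM. These limits and the counting intervals below cover counting error only. Trim24 had 3, 2 and 2 reads in KO1, KO2 and KO3, against 31, 45 and 44 reads in WT1, WT2 and WT3, and was called lower (log2 fold change -4.46, edgeR quasi-likelihood adjusted p = 2.1e-05). The liver identity of all 6 libraries was plain, with albumin at 5.34% to 7.80% of gene reads in knockout and 7.13% to 8.51% in wild type.

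The 9 genes together had 395, 683 and 483 reads in KO1, KO2 and KO3, against 14, 28 and 15 reads in WT1, WT2 and WT3. Every knockout library had at least 10 reads of each gene, while 12 of the 27 wild type values were 0. In 8 of the 9 genes every knockout library lay above every wild type library, which held for 12.4% of all 9180 tested genes. Because the genes were picked on these counts, nothing is read from that difference. All 9 passed the filter on low counts, and they did so through the knockout libraries. Mep1a had no wild type read at all, Gabra3 and Tmigd1 had 2 wild type reads each, and the other 6 had 4 to 16.

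**Figure D1:**
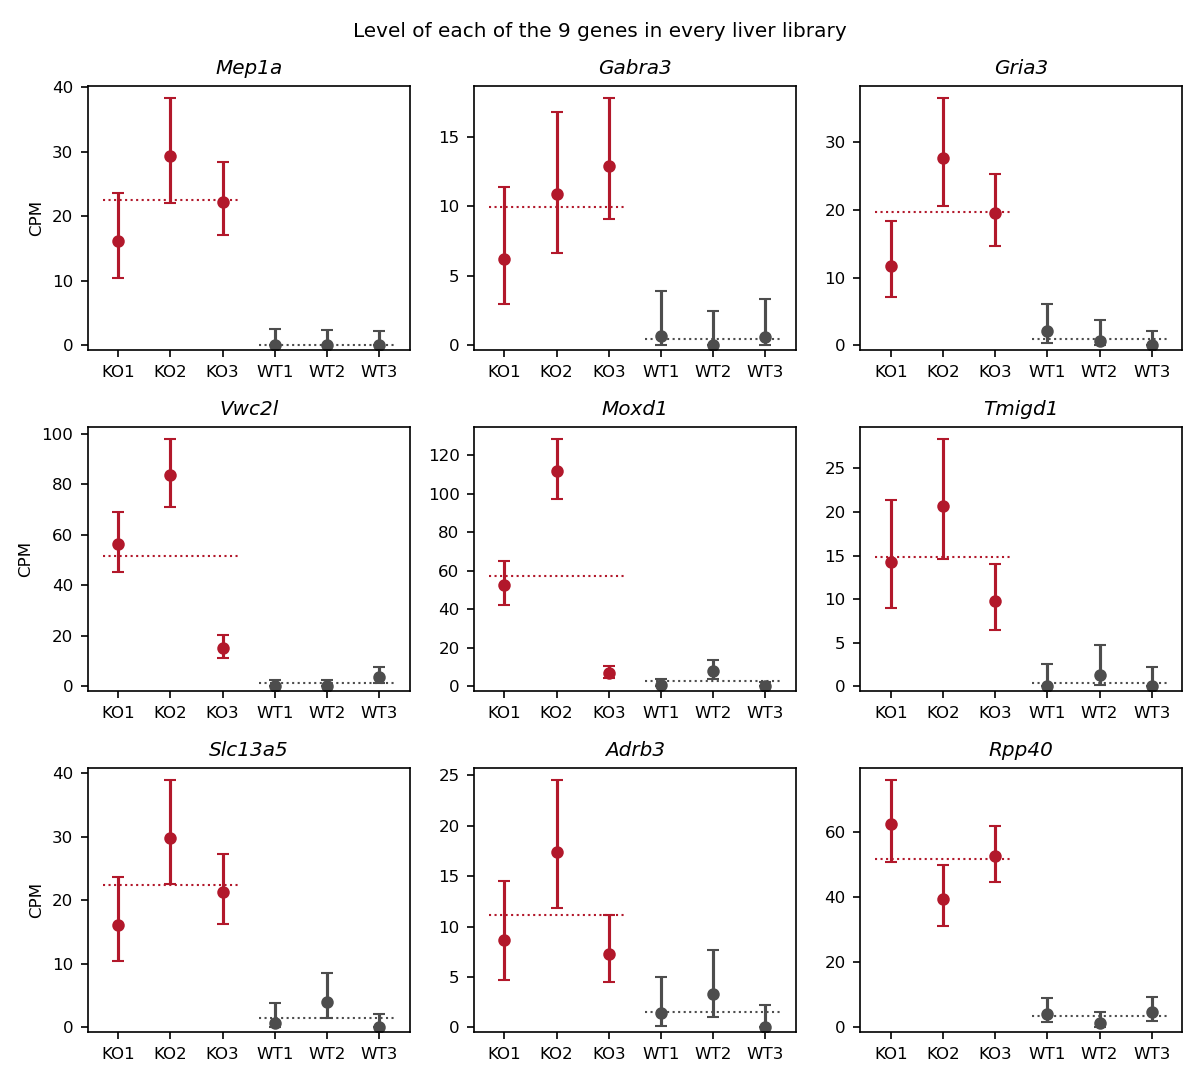
CPM of each of the 9 genes in the 3 knockout libraries (red) and the 3 wild type libraries (grey). Bars are exact 95% counting intervals of each library and dotted lines are group means. Moxd1 is the gene whose groups overlap, with KO3 at 6.96 CPM and WT2 at 7.94 CPM.

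Mep1a and Tmigd1 are genes of brush border epithelium. Mep1a encodes the alpha subunit of meprin, an astacin-type metalloproteinase that cuts peptides and matrix proteins. It had 26, 54 and 64 reads in KO1, KO2 and KO3, against 0, 0 and 0 reads in WT1, WT2 and WT3. The mean was 22.6 ± 6.6 CPM in knockout (SD, n = 3). With 3 reads over the wild type group standing in for 0, the ratio of pooled counts was 35.1. Without WT3 it was 22.3, only because the same 3 reads then stood over fewer libraries. The exact 95% lower limit of the ratio of pooled counts was 28.2. All 3 knockout libraries were alike in this gene, within 1.82-fold of each other. Tmigd1, which encodes an immunoglobulin-domain adhesion protein of epithelial cells, had 23, 38 and 28 reads in KO1, KO2 and KO3, against 0, 2 and 0 in WT1, WT2 and WT3. Its ratio was 32.5 with an exact 95% counting interval of 8.74 to 273, and KO2 was again the highest. The ratio rested on the 2 reads of WT2. It was 14.6 without that library, with 3 reads standing in for 0, and 20.7 without WT3.

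The sequences upstream of these 2 genes are shown because both belong to epithelia and both were read in all knockout livers, so that their start regions can be compared. They come from the 250 bases before a RefSeq start on GRCm38.p6, 5′ to 3′ on the strand of the gene, and 39 bases of Mep1a that GENCODE M21 places in its first exon are left out. Capitals mark matches to the motifs named beneath them, and Mep1a has none.
Mep1a, chr17:43502813-43503023, minus strand: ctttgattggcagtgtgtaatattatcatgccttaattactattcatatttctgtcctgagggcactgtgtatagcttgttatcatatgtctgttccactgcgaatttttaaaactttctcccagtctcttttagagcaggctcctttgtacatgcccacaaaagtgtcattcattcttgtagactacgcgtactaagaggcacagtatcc
Tmigd1, chr11:76901909-76902158, plus strand: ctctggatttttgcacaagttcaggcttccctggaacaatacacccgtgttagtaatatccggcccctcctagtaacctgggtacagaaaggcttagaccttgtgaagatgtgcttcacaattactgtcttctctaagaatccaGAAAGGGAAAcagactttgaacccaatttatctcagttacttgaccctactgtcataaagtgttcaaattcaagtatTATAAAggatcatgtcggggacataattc
Tmigd1 has another RefSeq start farther upstream, whose 250 bases hold none of the motifs. The Tmigd1 stretch shown holds TATAAA with its first base 29 bases before the start, the place where a TATA box usually lies, and a match to the interferon response core, which is GAAA, any 2 bases and GAAA, at 106 bases. The 250 bases before the start of Mep1a hold neither. GC made up 41.6% of the 250 bases of Mep1a and 41.2% of those of Tmigd1.

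Gabra3 and Gria3 encode ion channel subunits of neurons and are both on the X chromosome. Gabra3 encodes the alpha 3 subunit of the GABA-A receptor, the chloride channel that GABA opens. It had 10, 20 and 37 reads in KO1, KO2 and KO3, against 1, 0 and 1 reads in WT1, WT2 and WT3. Its ratio was 24.5 with a counting interval of 6.52 to 206, on the lowest knockout mean of the 9 genes before any correction for length (9.97 ± 3.43 CPM). Gria3 encodes an AMPA receptor subunit, a cation channel opened by glutamate. It had 19, 51 and 56 reads in KO1, KO2 and KO3, against 3, 1 and 0 in WT1, WT2 and WT3. The means were 19.6 ± 8.0 CPM in knockout and 0.919 ± 1.071 CPM in wild type (SD, n = 3 each), a ratio of 21.4 that was 63.6 without WT1 and 14.2 without WT3. For both genes KO1 was the lowest knockout library and lay above each wild type library. For Gabra3 the counting intervals of KO1 (2.97 to 11.4 CPM) and WT1 (0.0177 to 3.89 CPM) overlapped.

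Adrb3 encodes the beta 3 adrenergic receptor, which drives fat breakdown in adipocytes. It had 14, 32 and 21 reads in KO1, KO2 and KO3, against 2, 5 and 0 in WT1, WT2 and WT3. This was 11.1 ± 5.5 CPM in knockout and 1.57 ± 1.66 CPM in wild type, with a ratio of 7.09, the smallest of the 9, which was 16.5 without WT2 and 4.73 without WT3. The gap between the groups was narrow here too. KO3 lay at 7.31 CPM and WT2 at 3.31 CPM, and their counting intervals (4.52 to 11.2 CPM and 1.07 to 7.72 CPM) overlapped.

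Vwc2l and Moxd1 encode proteins of the secretory pathway and had the widest spread among knockout livers. Vwc2l encodes a secreted protein with von Willebrand factor C domains, a fold shared with antagonists of bone morphogenetic proteins. It had 91, 154 and 44 reads in KO1, KO2 and KO3, against 0, 0 and 6 in WT1, WT2 and WT3. In CPM, KO3 (15.3, interval 11.1 to 20.5) lay far below KO2 (83.6, interval 70.9 to 97.9), a 5.46-fold range within one genotype. Its ratio of means was 43.6, and 29.0 without WT1 or WT2. Moxd1 encodes a relative of dopamine beta-hydroxylase, a copper monooxygenase, kept in the endoplasmic reticulum. It had 85, 206 and 20 reads in KO1, KO2 and KO3, against 1, 12 and 0 in WT1, WT2 and WT3. KO3, at 6.96 CPM, was below WT2, at 7.94 CPM, and their counting intervals (4.25 to 10.7 CPM and 4.10 to 13.9 CPM) overlapped, that of KO3 lying inside that of WT2. The ratio of means, 19.8, thus rested on single libraries, and it was 153 without WT2, 10.4 without KO2 and 2.42 with KO3 as the only knockout library. Moxd1 therefore goes against its description as a gene with clear reads in every knockout liver and few in every wild type liver.

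Slc13a5 encodes NaCT, which carries citrate into cells together with sodium. It had 26, 55 and 61 reads in KO1, KO2 and KO3, against 1, 6 and 0 in WT1, WT2 and WT3. The means were 22.4 ± 6.9 CPM in knockout and 1.56 ± 2.12 CPM in wild type, with a ratio of 14.4 that was 69.9 without WT2 and 9.60 without WT3. In GENCODE M21 its exons share 473 bases with 1700051A21Rik, a noncoding gene on the opposite strand, and the sources used here do not say whether counting used strand, so reads of the overlapping stretch cannot be told apart. Adrb3 and Rpp40 share 839 and 80 exon bases with noncoding genes on the opposite strand, which are not in the count tables. If counting did not use strand, reads of those noncoding genes in the shared bases may be counted for Adrb3 and Rpp40.

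Rpp40 encodes a protein subunit of RNase P, the enzyme that trims the 5′ end of transfer RNA precursors. It had 101, 73 and 152 reads in KO1, KO2 and KO3, against 6, 2 and 8 in WT1, WT2 and WT3. The means were 51.7 ± 11.5 CPM in knockout and 3.42 ± 1.84 CPM in wild type, a ratio of 15.1. Rpp40 was the 1 gene of the 9 with reads in every wild type library, so it was low in wild type liver and not off, and it was the 1 gene whose lowest knockout library was KO2.

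The upstream sequences of Slc13a5 and Rpp40, in the same form, are shown as a contrast to the 2 epithelial genes above, because neither gene is a plain case of a gene silent in liver. For Slc13a5 the start farther into the gene was used. Left out were 55 bases of Slc13a5 and 12 of Rpp40 next to the start, which lie in annotated exons of these genes.
Slc13a5, chr11:72266660-72266854, minus strand: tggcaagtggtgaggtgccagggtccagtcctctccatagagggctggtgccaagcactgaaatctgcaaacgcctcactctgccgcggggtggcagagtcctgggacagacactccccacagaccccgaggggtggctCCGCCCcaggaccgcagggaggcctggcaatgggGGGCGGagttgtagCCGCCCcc
Rpp40, chr13:35906360-35906597, minus strand: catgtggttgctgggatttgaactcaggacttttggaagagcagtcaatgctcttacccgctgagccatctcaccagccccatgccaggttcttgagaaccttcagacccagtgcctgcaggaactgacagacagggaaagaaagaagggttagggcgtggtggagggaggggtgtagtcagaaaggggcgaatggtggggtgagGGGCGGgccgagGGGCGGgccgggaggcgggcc
Capitals here mark the GC box letters GGGCGG, read on both strands, with 3 matches in Slc13a5 and 2 in Rpp40. GC made up 65.6% of the 250 bases of Slc13a5 and 60.8% of those of Rpp40. The 250 bases before the other start of Slc13a5 held 1 match, 61.6% GC and 22 CpG, against 13 CpG at the start shown. Promoters of 7 of the 9 genes, with 10 starts, were matched by symbol, and those of Gria3 and Adrb3 were not. The motifs were searched on both strands, and none of the matches overlapped another motif. GGGCGG was present at 3 of the 7 genes (Moxd1, Slc13a5 and Rpp40). By start, which is how the stretches of all genes were counted, it was present at 4 of 10, and in 32.7% of all 32817 upstream stretches. TATAAA was present at 3 of the 7 (Gabra3, Vwc2l and Tmigd1, within 29 to 245 bases of the start), or 4 of 10 starts, and in 12.4% of all stretches. At Gabra3 and Vwc2l the match was on the opposite strand (TTTATA), 123 to 245 bases before the start, and the 2 starts of Gabra3 share 1 site. The interferon response core was found at 1 of the 7, Tmigd1, or 1 of 10 starts, and in 2.97% of all. AGGTCA, the letters that many nuclear receptors bind, was found at none of the 7 and in 14.03% of all, which says only that these letters are not in these windows. Mep1a, Gabra3, Vwc2l, Moxd1 and Tmigd1 had 39.2% to 58.4% GC over their starts, against a median of 52.4% over all stretches, and Gabra3 had no CpG at either start.

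Levels can be set side by side between genes only per length. Divided by the summed exon length in GENCODE M21, which may differ from the models used for counting, Moxd1 was highest in knockout liver, at 17.9 ± 16.4 CPM per kb (SD, n = 3). Tmigd1 (9.95 ± 3.66), Rpp40 (7.90 ± 1.76), Vwc2l (6.73 ± 4.47) and Mep1a (6.53 ± 1.91 CPM per kb) followed. Slc13a5 (4.53 ± 1.41), Adrb3 (3.29 ± 1.62), Gabra3 (2.54 ± 0.87) and Gria3 (1.99 ± 0.81 CPM per kb) were lower. Neighbours in this order differed by less than the larger of their SDs, except Mep1a and Slc13a5, whose difference was slightly above it.

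KO2 was the highest knockout library for 7 of the 9 genes, KO3 for Gabra3 and KO1 for Rpp40. The lowest was KO1 for Mep1a, Gabra3, Gria3 and Slc13a5, KO3 for Vwc2l, Moxd1, Tmigd1 and Adrb3, and KO2 for Rpp40. The summed level of the 9 genes was 245 CPM in KO1, 371 CPM in KO2 and 168 CPM in KO3, against 9.78 CPM in WT1, 18.5 CPM in WT2 and 8.91 CPM in WT3. WT2 also held 28 of the 57 wild type reads, 12 of them of Moxd1, and was highest among wild type for Moxd1, Slc13a5, Adrb3 and Tmigd1.

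Markers of the tissues that normally use these genes were counted in the same libraries. In bulk RNA, fewer cells of a type and less RNA per cell cannot be told apart. Of 12 kidney tubule genes, 6 had no read in any library, among them Slc34a1, Slc12a1 and Aqp2, and the list summed to 22.3 to 27.2 CPM in knockout and 13.3 to 17.2 CPM in wild type. Of the 2 genes of this list that were tested, 1 was called, beside 3.08% of all tested genes called higher. This was Lrp2, an endocytic receptor of absorptive epithelium, at 10.98 ± 0.60 CPM in knockout and 1.14 ± 1.06 CPM in wild type (log2 fold change 3.27, SE 0.55, edgeR quasi-likelihood adjusted p = 0.0034). The other, Slc5a2, had 11.8 ± 3.1 CPM in knockout and 11.6 ± 1.3 CPM in wild type and did not pass. Cubn, of the same list, had 2, 3 and 4 reads in KO1, KO2 and KO3, against 1, 4 and 6 in WT1, WT2 and WT3, and was not tested. The part of Lrp2 in the levels of Mep1a and Tmigd1 was not tested. Of 11 intestinal genes in the tables, none was called of the 4 tested, and Cdx1 and Cdx2, which define that epithelium, had 0 reads in knockout. Tff3, a goblet cell peptide, had 2, 8 and 22 reads in KO1, KO2 and KO3, against 3, 0 and 1 in WT1, WT2 and WT3, and was not tested. The intestinal sum was 622 to 931 CPM in knockout and 636 to 734 CPM in wild type, mostly Apoa4, Anpep and Fabp2, which liver uses too.

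Of 14 neuronal genes, 6 had no read in any library, including Snap25, Tubb3 and Gad1, and the list summed to 23.3 to 28.5 CPM in knockout and 37.4 to 44.0 CPM in wild type. Of 9 adipocyte genes, Lep, Ucp1 and Retn had no read and Adipoq had 1, in KO3, and the list summed to 6.19 to 15.2 CPM in knockout and 8.38 to 18.4 CPM in wild type. Of 9 male germ cell genes, 7 had no read in any library. Reads of the Y-linked Ddx3y were present in all libraries, at 212 CPM in knockout and 171 CPM in wild type on average, and Xist, the RNA of the inactive X chromosome, had 21 to 73 reads in knockout libraries and 22 to 43 in wild type libraries. None of the 5 sex-linked genes was called. Syt1, of the neuronal list, had 18.8 ± 5.3 CPM in knockout and 33.1 ± 5.3 CPM in wild type and did not pass.

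Pancreatic acinar genes did differ between libraries. Together, the 18 genes of that list reached 964 CPM in KO1, 13.6 CPM in KO2 and 640 CPM in KO3, against 39.8 CPM in WT1, 15.9 CPM in WT2 and 12.5 CPM in WT3. The 1 tested gene, Cela1, was called higher (edgeR adjusted p = 0.046), and not with DESeq2 (0.16) or without any 1 library other than KO2 (0.098 to 0.16). With KO2, the knockout library without them, as the only knockout library, the ratios of the 9 genes ran from 11.1 for Adrb3 to 70.4 for Vwc2l, with Rpp40 at 11.6. That alternative was chosen after seeing the data, and since KO2 was the highest knockout library for 7 of the 9 genes, nothing is read from it. The part of the acinar transcripts in the levels of the 9 genes was not tested.

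**Figure D2:**
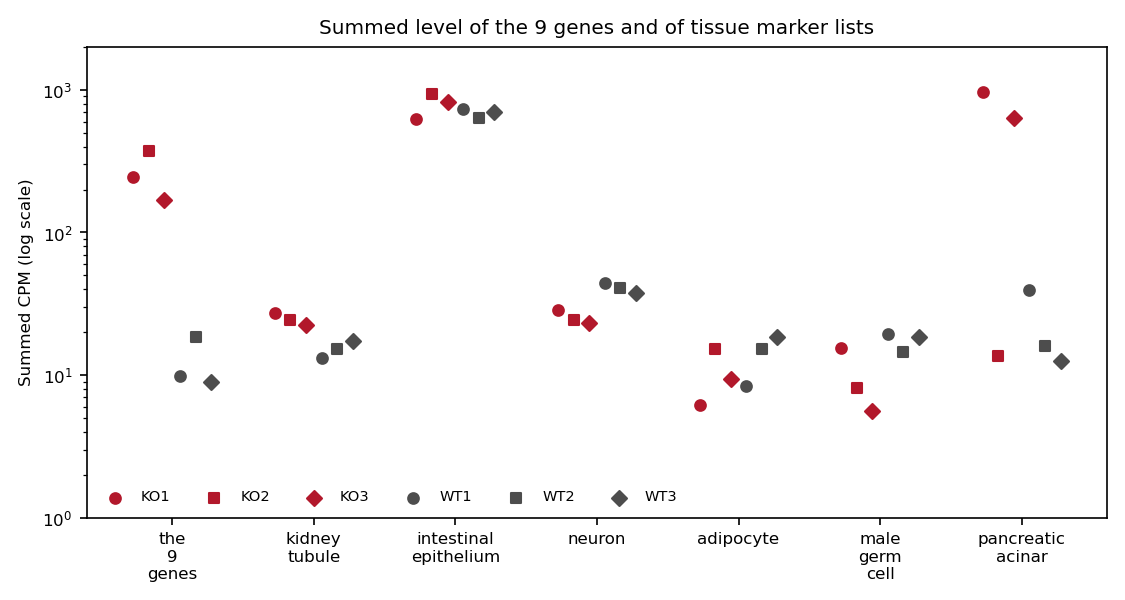
Summed CPM (log scale) of the 9 genes and of 6 marker lists in the 3 knockout libraries (red) and 3 wild type libraries (grey), with 1 symbol per library. The 9 genes sum to 168 to 371 CPM in knockout and 8.91 to 18.5 CPM in wild type, while the acinar list is high in KO1 and KO3 and not in KO2.

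Related genes of the 9 were read off the comparison of all genes, since the choice of the 9 did not use them. Of 101 listed relatives 98 were in the tables, 20 had no read in any library and 30 were tested. At an edgeR adjusted p under 0.05, 1 was higher and 1 lower, where 3.08% of all tested genes were higher and 2.65% lower. The median log2 fold change of the 30 was -0.06, beside 0.01 over all tested genes. The lists were chosen with earlier results of these data known.

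Most other receptor subunit genes had few reads or none in both genotypes. None of the 18 other GABA-A receptor subunit genes passed the filter, 6 had no read, and the most abundant was Gabrp with 5, 9 and 7 reads in KO1, KO2 and KO3, against 0, 3 and 0 in WT1, WT2 and WT3. The 18 genes summed to 4.95 to 9.77 CPM in knockout and 2.79 to 4.75 CPM in wild type. None of the 17 other ionotropic glutamate receptor genes passed the filter either. Gria4, another AMPA receptor subunit, had 7, 22 and 18 reads in KO1, KO2 and KO3, against 0, 0 and 1 in WT1, WT2 and WT3. With no filter on low counts it was called higher (edgeR adjusted p = 1.3e-06), and it was tested and called in 4 of the fits with 1 library left out (adjusted p = 0.0033 without KO1 to 0.041 without WT2). The other AMPA subunit genes had at most 1 read in any library, as did Grin1, a subunit of every NMDA receptor. Gabra2 had 1 to 4 reads in knockout libraries and 1 to 4 in wild type libraries. Grik5 and Grin3b had 1.95 ± 0.63 and 2.28 ± 1.65 CPM in knockout, and 1.93 ± 0.55 and 1.99 ± 0.80 CPM in wild type.

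For the enzymes and secreted proteins, no relative passed. Mep1b, the partner subunit of meprin, had 3, 2 and 3 reads in KO1, KO2 and KO3, against 2, 0 and 0 in WT1, WT2 and WT3, and the astacin protease gene Bmp1 had 56.4 ± 12.0 CPM in knockout and 73.5 ± 12.0 CPM in wild type. Of the bone morphogenetic protein modulators, Crim1 had 20.6 ± 6.0 CPM in knockout and 28.4 ± 2.5 CPM in wild type and did not pass. Fst, which encodes the activin antagonist follistatin, had 5, 17 and 14 reads in KO1, KO2 and KO3, against 4, 4 and 2 in WT1, WT2 and WT3, and was not tested. Pam, a copper monooxygenase that amidates peptides, had 47.6 ± 5.7 CPM in knockout and 36.6 ± 5.0 CPM in wild type, and Ddc, which makes dopamine, 42.5 ± 23.9 CPM in knockout and 32.0 ± 20.7 CPM in wild type. Dbh, Moxd2 and Pnmt had no read in any library, and Th and the astacin gene Tll1 had 1 read each, in KO2. The junction genes F11r, Igsf5 and Cxadr, which like Tmigd1 encode immunoglobulin-domain surface proteins, had 73.1 ± 14.3, 53.2 ± 2.8 and 120 ± 34 CPM in knockout, against 58.5 ± 8.1, 54.0 ± 6.6 and 95.6 ± 7.1 CPM in wild type.

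Of 7 tested genes of citrate transport and use, 1 passed. Slc25a1, the carrier that exports citrate from mitochondria for fatty acid synthesis, fell to 118 ± 19.9 CPM in knockout, against 182 ± 16.5 CPM in wild type (log2 fold change -0.62, SE 0.16, edgeR adjusted p = 0.043). That call ended without each library except KO1 (adjusted p up to 0.18, without WT3). Acly, which splits cytosolic citrate, had 180 ± 27 CPM in knockout and 246 ± 63 CPM in wild type, and Fasn 199 ± 42 CPM in knockout and 305 ± 88 CPM in wild type, and neither passed (adjusted p = 0.22 and 0.13), although Fasn did with no filter on low counts (adjusted p = 0.0092). Acaca, which makes malonyl-CoA, had 244 ± 35.2 CPM in knockout and 253 ± 67.7 CPM in wild type and did not pass. Slc13a3, the 1 other SLC13 transporter gene that was tested, had 26.6 ± 8.0 CPM in knockout and 20.9 ± 6.2 CPM in wild type and did not pass. Among adrenergic genes, Gnas, Prkaca and Prkar1a, which carry the signal from the receptor, had 174 ± 10.2, 37.2 ± 4.7 and 59.6 ± 11.6 CPM in knockout, against 199 ± 32, 39.7 ± 6.1 and 62.6 ± 1.4 CPM in wild type, and none of 7 tested genes passed.

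In the RNase P family, 1 of 6 tested genes other than Rpp40 passed, and it was the RNA component. Rpph1, the catalytic RNA of RNase P, had 1921, 2440 and 4309 reads in KO1, KO2 and KO3, against 830, 805 and 1046 in WT1, WT2 and WT3. It rose to 1338 ± 155 CPM in knockout, against 578 ± 44 CPM in wild type (log2 fold change 1.21, SE 0.15, edgeR adjusted p = 0.00052), and the groups did not overlap. The call held in all 10 alternative fits, with log2 fold changes of 1.12 to 1.28. Rmrp, the RNA of the sister enzyme RNase MRP, had 282 ± 49 CPM in knockout and 245 ± 84 CPM in wild type and did not pass (adjusted p = 0.68). The protein subunit genes Pop5 (17.1 ± 2.8 and 12.8 ± 1.4 CPM in knockout and wild type), Rpp14 (23.9 ± 4.1 and 23.4 ± 5.8 CPM) and the other 2 tested did not pass. Of those 2, Pop4 was lower in each knockout library than in each wild type library (3.82 ± 0.94 and 7.55 ± 0.50 CPM, edgeR adjusted p = 0.15). Pop4 was named after its values were seen. Rpph1 has relatives of like sequence in the genome, and Rprl3, with 86.4% identity, gaps counted, in an alignment of 236 paired bases, had 0, 0 and 0 reads in KO1, KO2 and KO3, against 15, 19 and 40 in WT1, WT2 and WT3. The sources used here do not say how the counting split reads between these copies. Summed over Rpph1 and its 3 copies, the level was 1338 CPM in knockout and 593 CPM in wild type.

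**Figure D3:**
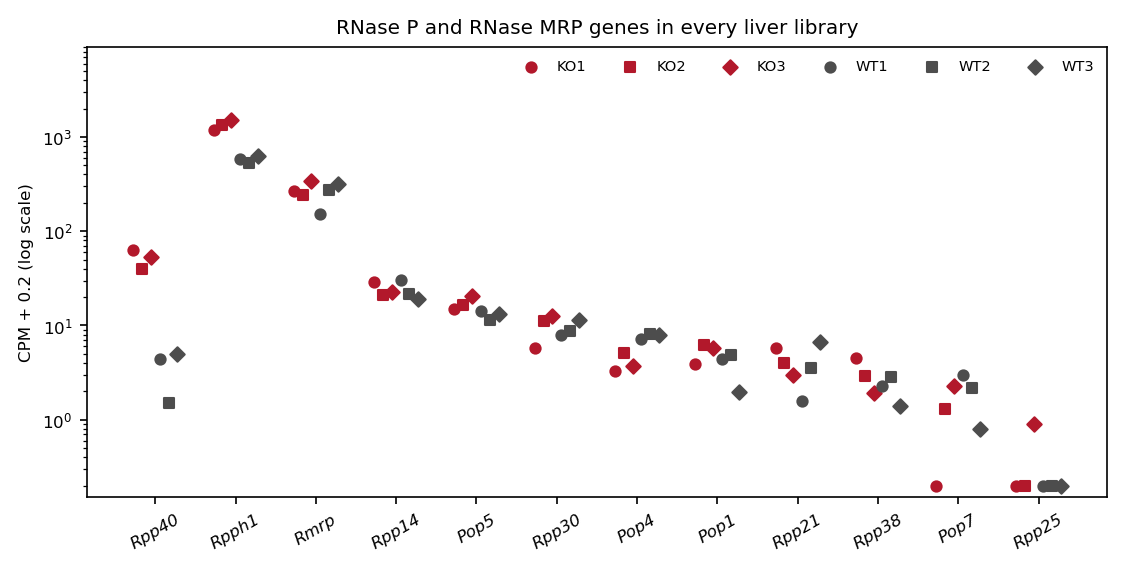
CPM plus 0.2 (log scale) of Rpp40 and 11 other genes of RNase P and RNase MRP in the 3 knockout libraries (red) and 3 wild type libraries (grey). Rpp40, the RNA gene Rpph1 and Pop5 are higher in each knockout library than in each wild type library, and Pop4 is lower in each. Pop5 and Pop4 did not pass the test. Over all 9180 tested genes, 12.4% were higher in this way and 12.6% lower.

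Genes nearest to the 9 on the chromosome were examined in the same fit, with the 5 nearest genes of the tables on each side taken from GENCODE M21. Not all lay close by, with gaps of up to 3687 kb at Vwc2l and 2787 kb at Gria3. Of these 90 genes, 27 had no read in any library and 36 were tested. Of the 36, 4 were higher and 1 lower in the knockout, beside 3.08% and 2.65% of all tested genes, with a median log2 fold change of 0.04 beside 0.01. Among the 4, 1700051A21Rik shares 473 exon bases with Slc13a5. Its count may therefore not be independent of the choice of the 9 genes. At 5 of the 9 genes, namely Mep1a, Vwc2l, Tmigd1, Adrb3 and Rpp40, no tested neighbour was called, although Gpr110 near Mep1a was with no filter on low counts (adjusted p = 0.0048) and without WT1 (0.047). With no filter, Got1l1 near Adrb3 was called higher, and Erbb4 near Vwc2l and Tusc5 near Tmigd1 lower, as given below. The nearest tested neighbour was Gpr116 at Mep1a (107 ± 1.3 CPM in knockout and 108 ± 8.3 CPM in wild type), Blmh at Tmigd1 (63.3 ± 10.1 and 42.7 ± 7.6 CPM in the same order), Atic at Vwc2l (36.9 ± 6.1 and 33.1 ± 3.7 CPM), Eif4ebp1 at Adrb3 (15.9 ± 7.7 and 14.7 ± 3.1 CPM) and Lyrm4 at Rpp40 (16.0 ± 0.9 and 14.5 ± 3.1 CPM). In this order they lay 14.8, 8.22, 672, 9.71 and 72.0 kb away.

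Slc13a5 had 2 called neighbours. The antisense gene 1700051A21Rik, which overlaps its start, had 29, 47 and 77 reads in KO1, KO2 and KO3, against 2, 10 and 3 in WT1, WT2 and WT3. It rose to 23.4 ± 4.8 CPM in knockout, against 3.26 ± 2.91 CPM in wild type (log2 fold change 2.84, SE 0.42, edgeR adjusted p = 0.0014), and without strand its reads and those of Slc13a5 cannot be told apart. The upstream stretch of Slc13a5 printed above lies inside this antisense gene. Xaf1, an interferon-induced gene that follows on the same side, rose to 28.6 ± 23.0 CPM in knockout, against 7.24 ± 2.74 CPM in wild type (adjusted p = 0.039). That call rested on KO3, which had 157 reads where KO1 and KO2 had 33 and 20, and it ended with DESeq2 (adjusted p = 0.12), without KO3 (0.17) and without WT1, WT2 or WT3 (0.12, 0.15 and 0.088).

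The other calls were farther from the gene or close to the threshold. Stx7, a syntaxin gene 33.3 kb from Moxd1, rose to 23.3 ± 6.6 CPM in knockout, against 11.6 ± 1.8 CPM in wild type (adjusted p = 0.0498), and the call ended with DESeq2 (0.094), RLE factors (0.0503) and a replicate block (0.0517), and without each library but KO1 (0.098 to 0.18). 6030498E09Rik, the third gene from Gria3 and 2438 kb away, rose to 35.0 ± 25.6 CPM in knockout, against 3.39 ± 2.01 CPM in wild type (log2 fold change 3.29, SE 0.59, adjusted p = 0.0053), and was called in all 10 alternative fits. Nsdhl, a cholesterol synthesis gene 262 kb from Gabra3, fell to 74.2 ± 14.4 CPM in knockout, against 116 ± 16 CPM in wild type (adjusted p = 0.046), a call that ended without each library but KO1 (up to 0.19, without WT3). Gabra3's neighbours in the receptor gene cluster, Gabre and Gabrq, had at most 1 and 4 reads in any library. Got1l1, 1.95 kb from Adrb3, had 6, 5 and 2 reads in KO1, KO2 and KO3, against 0, 0 and 0 in WT1, WT2 and WT3, too few to pass the filter, and with no filter it was called higher (adjusted p = 0.039). Erbb4, the third gene before Vwc2l and 1618 kb away, had 0, 1 and 1 reads in KO1, KO2 and KO3, against 9, 14 and 7 in WT1, WT2 and WT3. It was called lower with no filter (edgeR adjusted p = 1.7e-05) and without KO1 (0.0095). Tusc5, the third gene before Tmigd1 and 203 kb away, had 0, 1 and 0 reads in KO1, KO2 and KO3, against 5, 6 and 2 in WT1, WT2 and WT3. With no filter it was called lower (edgeR adjusted p = 0.031). Got1l1, Erbb4 and Tusc5 were chosen after their values were seen.

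**Figure D4:**
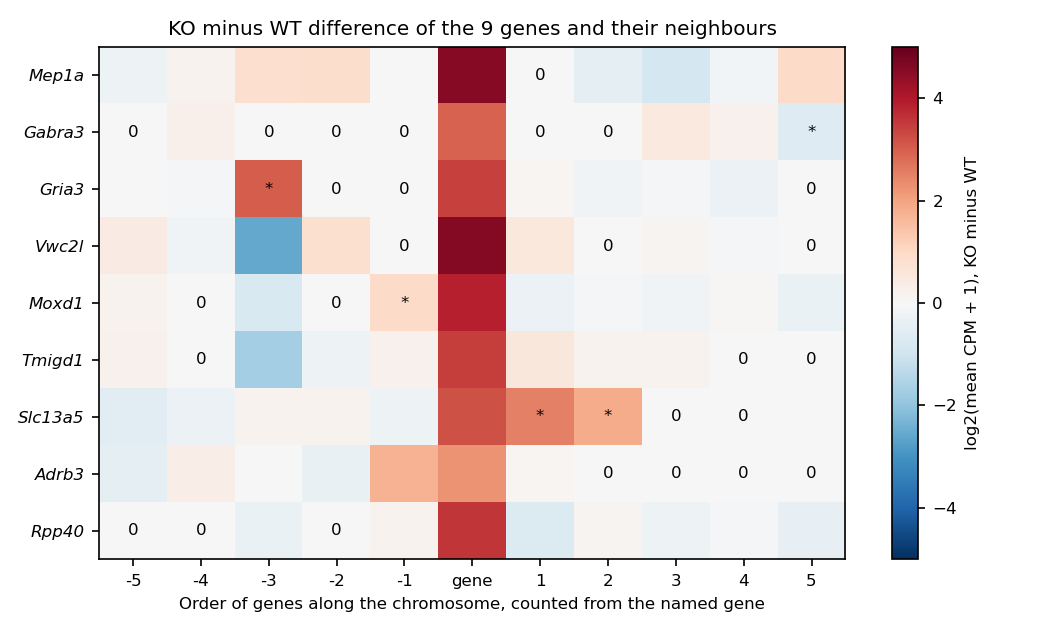
Difference of log2(mean CPM + 1), knockout minus wild type, for the 9 genes (middle column) and their 5 neighbours on each side in chromosome order. An asterisk marks a neighbour called by edgeR and 0 marks a neighbour with no read in any library. All 9 genes are higher in knockout, and 4 neighbours are marked as higher and 1 as lower.

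How many genes of the series share the pattern was counted with numbers set for this purpose: a wild type mean under 5 CPM, a knockout mean of at least 5 CPM and 5 times the wild type mean, and every knockout library above every wild type library. This held for 68 of 23284 genes (0.292%), 8 of them among the 9, with Moxd1 left out by its overlap. The mirror pattern, read in wild type and low in knockout, held for 17 genes (0.073%), among them Trim24 itself. Of the 9, Adrb3 was the one nearest to the limit, at 7.09-fold. The last gene inside was Cd52, with means of 6.59 CPM in knockout and 1.31 CPM in wild type, and the first outside was Oasl2, with 12.6 CPM in knockout and 2.60 CPM in wild type (4.85-fold). Among the 68, KO2 was the highest knockout library for 36, KO3 for 24 and KO1 for 8. The 68 also held genes given above, namely the relative Gria4, Lrp2 of the kidney list and the neighbours 6030498E09Rik and 1700051A21Rik.

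The 10 other genes with the largest ratio were mixed in kind. Ccdc11 had 84, 118 and 164 reads in KO1, KO2 and KO3, against none in wild type, and Lcn13, a lipocalin, 304, 147 and 145 reads against 2, 4 and 3. Eda2r, a receptor of the tumour necrosis factor family, had 38, 95 and 89 reads in KO1, KO2 and KO3, against 2, 1 and 1 in WT1, WT2 and WT3, and Phlda3, a target of p53, 15, 24 and 35 reads against 1, 0 and 0. The chemokine gene Cxcl1 had 48, 216 and 567 reads in KO1, KO2 and KO3, against 3, 5 and 14. Rnase1 and Reg1, genes of pancreatic secretion, had 129, 1 and 121 reads and 41, 1 and 42 reads in KO1, KO2 and KO3, and none in wild type, the same high and low libraries as the acinar list. The calcitonin receptor gene Calcr had 26, 26 and 15 reads against 0, 3 and 1, Pcdh11x, an X-linked protocadherin, 9, 27 and 14 against 0, 1 and 1, and Zbp1, a sensor of nucleic acids, 8, 14 and 35 against 0, 1 and 0.

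**Figure D5:**
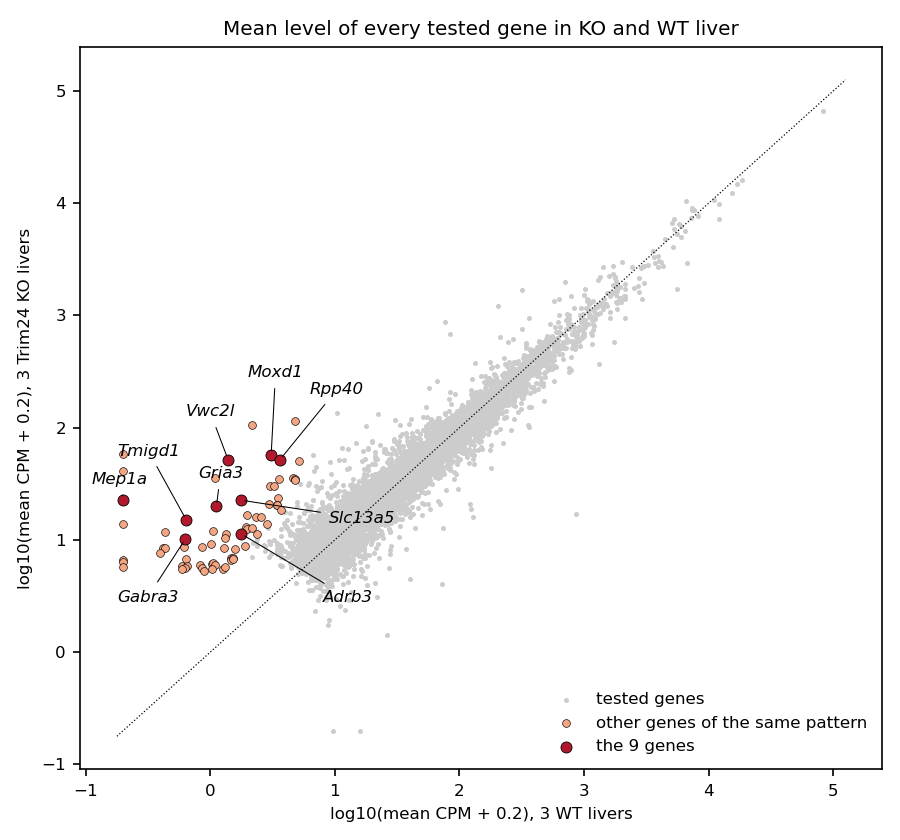
Mean level of every tested gene as log10(mean CPM + 0.2) in the knockout (vertical axis) and wild type (horizontal axis) livers, with the 9 genes in red and the other genes of the same pattern in orange. The dotted line marks equal levels. The 9 genes lie among the orange points, from 9.97 to 57.1 CPM in knockout and 0 to 3.42 CPM in wild type.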

How the data were processed

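Liver RNA was sequenced in 3 Trim24 -/- and 3 wild type libraries, grouped by the labels. The authors deposited raw read counts per gene symbol for each library. TopHat 1.4.1, HTSeq, edgeR and the build mm9 appear in the submitters' processing notes with no role stated, and the sources used here do not give strand use. Reads in no gene (93.3% to 95.8%) and ambiguous reads were left out, and columns not used numbered 0.

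The count test was edgeR's quasi-likelihood test (edgeR 4.0.16, R 4.3.3), with genotype as the only term and TMM scaling, after filterByExpr with a minimum count of 10. Adjusted p are Benjamini-Hochberg over 9180 genes, called under 0.05, and a positive log2 fold change means higher in knockout. The fit was tested on simulated counts. The members, gene lists, markers and naming rule were chosen with earlier results of these data known. Named were Trim24, the members, called relatives and up to 3 abundant ones per family, called neighbours or the nearest tested one, and the 10 other genes of the same pattern with the largest ratio. Another relative that this rule picks is not reported here. Ratios of the members are of mean CPM, or of pooled counts where wild type had 0 to 3 reads, with 3 reads in place of 0 and exact 95% intervals for 1 to 3. GENCODE M21 (GRCm38), which held 22790 of the 23284 symbols, gave neighbours and exon lengths, and RefSeq (GRCm38.p6) gave the upstream sequences. Since the notes name mm9, these coordinates place the sequences only. Alternatives used DESeq2 1.42.0, other scaling, no filter, a replicate term and each library left out. Python 3.11.15 with pandas 2.3.3, scipy 1.17.1 and matplotlib 3.10.9 made tables and figures.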

Additional observations from a re-analysis of the deposited data

How the results depend on the processing

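Over all genes, 283 were higher and 243 lower in knockout, against 576 and 509 with no filter on low counts, and 127 to 409 and 95 to 363 when 1 library was left out, the lowest without WT3 and the highest without KO1. DESeq2 gave 260 and 263. Replicate numbers did not pair the libraries (correlations of -0.073, 0.079 and 0.035 for same-numbered libraries), and the replicate block gave 295 higher and 250 lower genes, 2 relatives lower (Fasn joined, adjusted p = 0.041) and 4 neighbours higher, where Gpr110 joined (adjusted p = 0.031) and Stx7 was lost (0.052). Relatives called higher numbered 1, 2 with no filter and 1 to 2 with a library left out; relatives called lower numbered 1, 2 with no filter and 0 to 1 with a library left out. Neighbours called higher numbered 4, 2 with DESeq2, 6 with no filter and 2 to 4 with a library left out; neighbours called lower numbered 1, 3 with no filter and 0 to 2 with a library left out. The cause of these shifts was not tested, beyond the fewer libraries and the other genes tested. The pattern of low wild type and higher knockout levels held for 68 genes, and for 32 at a minimum of 10-fold, and its mirror for 17 and 7. Of 99 alternative values of the 9 genes' ratios none fell below 1, from which nothing is read because the genes were picked on this contrast. Of the 99, 7 moved by more than their spread, all 7 with 1 wild type library left out. Those of Mep1a moved because the 3 reads in place of 0 then stood over fewer libraries. For Gria3, Vwc2l, Moxd1, Tmigd1, Slc13a5 and Adrb3 the spread was wider than the ratio, so no fall could count as a move. Moxd1 at 2.42 with KO3 alone, for instance, did not count. The values with 1 knockout library alone were added after seeing the data. Of 290 alternative values of the other named genes, 250 kept their direction and call, 23 lost a call, 2 gained one and 15 changed sign. The 15 were of genes that did not pass, with 1 library left out, over which log2 fold changes ran from -0.14 to 1.06 for Ddc, -0.12 to 0.057 for Igsf5, -0.22 to 0.17 for Acaca, -0.23 to 0.017 for Prkar1a, -0.23 to 0.0003 for Prkaca, -0.053 to 0.41 for Rmrp, -0.11 to 0.24 for Rpp14, -0.081 to 0.023 for Gpr116, -0.18 to 0.42 for Eif4ebp1 and -0.036 to 0.26 for Lyrm4. Depth limits the wild type values, of which 12 of 27 were 0.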
